A study of Equus caballus with 68 samples.

Results

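The genes of glycolysis, of lactate handling and of the pentose phosphate pathway were followed in equine bone marrow mononuclear cells (BMNC) cultured in normal or in inflamed synovial fluid. The set consisted of 32 gene symbols, chosen with earlier results of these data known. Their entries were taken from the expression table by symbol, whatever their values. An entry was found for 31 of the 32, out of 30371 entries in all. The glucose transporter gene SLC2A3 had no entry under that symbol, and no value is given for it. All 31 genes passed the filter on low values (at least 0.5 GeTMM in at least 7 libraries) and were among the 14570 genes tested, and 30 of the 31 were above 0 in every library. The exception was FBP1, which was at 0 in 1 library.

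BMNC came from 8 adult Thoroughbred horses, 3 to 9 years of age, of which 2 were female and 6 were geldings. Cells were sequenced before culture (0 hours) and after 48 hours, 96 hours, 6 days and 10 days in autologous synovial fluid, which was either normal (SF) or inflamed (ISF). The inflamed fluid was taken from radiocarpal joints of the same horses after an injection of lipopolysaccharide. The normal fluid came from their healthy middle carpal joints, so cells and fluid always shared a donor. Between the fluids, joint and inflammation thus differed together. In all, 68 libraries in 9 groups were available, with all 8 horses in every group except those of 48 hours (7, no Moon) and 10 days (7, no Flash). The uncultured cells and the SF cultures are the reference points. Fluid was added to the wells during culture without removing what was there, and neither glucose nor lactate nor oxygen is given for the wells in the labels.

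Glycolysis takes up glucose through facilitative transporters, traps it by phosphorylation, splits it into triose phosphates and ends in pyruvate, which is either reduced to lactate and exported or oxidized in mitochondria. The pentose phosphate pathway branches off after the hexokinase step, yields NADPH and ribose phosphate, and returns carbon to glycolysis through transketolase and transaldolase. In macrophages, a rise of glycolysis is known to accompany inflammatory activation, and many genes of the pathway are targets of the hypoxia-inducible factor HIF-1, whose oxygen-regulated subunit is encoded by HIF1A. That subunit is controlled mainly through the stability of the protein, so its transcript reports only part of its regulation.

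Expression is given as GeTMM, reads per kilobase of gene after scaling between libraries, which allows levels of different genes to be compared within a library. Between 15653000 and 35972000 reads fell on genes in each library (median 22253000, all rounded). Tests used limma on log2(GeTMM + 1) over 14570 genes, and a gene is called higher or lower when its false discovery rate (FDR) over all of them is under 0.05. Macrophage marker transcripts (CD68, CD163, MRC1, GPNMB, SPP1, TREM2 and MSR1) were all present, and the mean of log2(GeTMM + 1) over the 7 genes moved from 3.65 to 4.61 across the uncultured libraries to 10.47 to 11.29 in ISF and 10.29 to 10.75 in SF at 6 days. The 6-day SF library of Moon stood apart, with 12797 genes above 0 against 14783 to 17365 in every other library. The 96-hour ISF libraries from Dealings and Dreamer did not resemble their own horse: over all genes tested, their deviations from the group mean correlated with the SF library of the same horse at r = -0.015 and r = -0.217, and with the SF library of the other of these 2 horses at 0.327 and 0.414, while the 28 other pairs lay between 0.0743 and 0.563. Calls that are lost without these libraries are named beside the result. Counts of horses at 96 hours, and fits with horse as a block, use the horse names as labelled. For Dealings and Dreamer the pairing of ISF with SF is in doubt at that time.

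Comparing ISF with SF at each time shows how transcript levels differed between cultures in the 2 fluids. At 6 and 10 days the transcripts of most of the glycolytic chain were higher in ISF, from the glucose transporter SLC2A1 to the lactate exporter SLC16A3, whereas FBP1, TKT and TALDO1 were lower. Within the chain, HK3 was lower at 10 days and PFKM was called at neither time. Of the 31 genes, 1 was higher and 1 was lower in ISF at 48 hours, where 0.872% and 0.81% of all genes tested were called in those directions. At 96 hours 9 were higher and 3 were lower (all genes: 6.16% and 4.3%). At 6 days 21 were higher and 3 were lower (all genes: 16.7% and 13.6%), and at 10 days 19 were higher and 4 were lower (all genes: 9.95% and 10.8%). Over the 4 times in order, the median log2 fold change of the 31 genes was 0.17, 0.29, 1.03 and 0.90, and that of all genes tested was -0.02, -0.0027, 0 and -0.02. Without the 6-day SF library of Moon, 20 genes were higher and 3 were lower at that time. Without the 96-hour ISF libraries from Dealings and Dreamer, 8 were higher and none was lower at 96 hours, and leaving out either of these 2 horses altogether also left 0 lower. At 10 days 2 were lower without Catnip and without Ollie. With horse as a block, and the pairs of Dealings and Dreamer as labelled, 11 were higher and 5 were lower at 96 hours. The 8 genes that stayed higher at 96 hours without the 96-hour ISF libraries from Dealings and Dreamer were PFKP, TPI1, PFKFB3, GAPDH, ENO1, PKM, LDHA and PDHA1, with log2 fold changes of 0.49 (PDHA1) to 1.06 (PFKP) and an FDR of at most 0.0421 (ENO1). Fitting only the 2 groups compared, instead of all 9, ended the calls at 6 days for HK2 (FDR = 0.125), GPI (0.0537), PFKL (0.221), ALDOC (0.134), PFKFB4 (0.0995) and HIF1A (0.188), and at 10 days for HK3 (0.0598) and PFKL (0.0639).

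**Figure D1:**
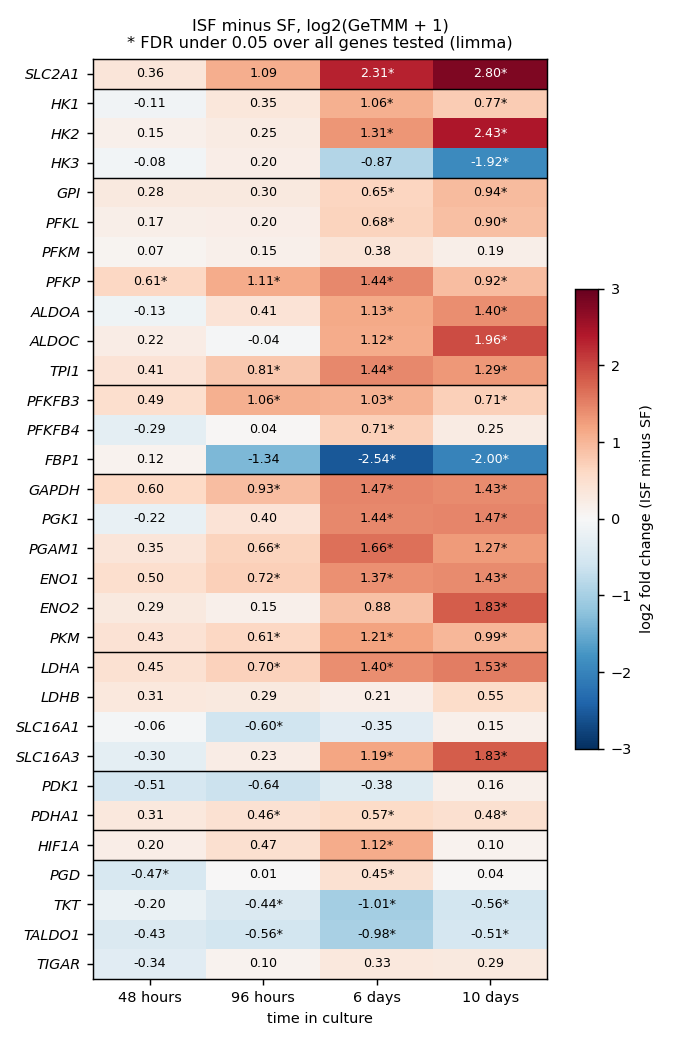
Log2 fold change between ISF and SF (color and printed value; red, higher in ISF; blue, lower) for the 31 genes in rows, ordered by role and separated by lines, at 4 times in columns. Asterisks mark FDR under 0.05 over the 14570 genes tested. The rows from SLC2A1 to LDHA are mostly red at 6 and 10 days, while HK3, FBP1, TKT and TALDO1 are blue.

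The same libraries also differed in cell type markers. At 6 days all 5 T cell markers, all 4 B cell markers and 5 of 6 neutrophil precursor markers were lower in ISF, and 3 of 4 cell cycle genes were higher. At 10 days all 5 T cell, all 4 B cell, 3 of 6 neutrophil precursor and all 5 fibroblast or stromal markers were lower in ISF. Of the 7 macrophage markers, 1 was higher and 1 was lower at 6 days, and 1 was higher at 10 days. The mean log2(GeTMM + 1) of the T cell list ranged over 1.41 to 3.22 in ISF and 2.66 to 5.35 in SF at 6 days, and over 0.85 to 1.89 and 2.48 to 5.22 at 10 days. For the B cell list the ranges were 0.36 to 2.74 and 1.76 to 4.46 at 6 days and 0.40 to 1.54 and 1.16 to 4.53 at 10 days. For the neutrophil precursor list they were 0.50 to 7.06 and 3.58 to 8.90 at 6 days and 0.16 to 3.16 and 0.39 to 7.31 at 10 days. The macrophage list ranged over 10.74 to 11.47 in ISF and 10.46 to 10.80 in SF at 10 days. The cell cycle list ranged over 3.88 to 5.24 and 2.57 to 4.90 at 6 days, and the fibroblast or stromal list over 0.03 to 3.38 and 0.10 to 9.39 at 10 days. The erythroid list ranged over 0.18 to 0.38 and 0.18 to 0.42 at 10 days, and its marker ALAS2 was at 0 in all 7 ISF libraries at that time. The part of these cells in the results below was not tested, and in such bulk libraries fewer cells of a type and less RNA per cell cannot be told apart.

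SLC2A1 encodes GLUT1, a facilitative glucose transporter, and was the only glucose transporter gene of the set with an entry. Its lowest, median and highest values at 6 days were 4.51, 12.9 and 61.8 GeTMM in ISF (n = 8) against 1.38, 1.9 and 4.87 GeTMM in SF (n = 8), and only the lowest ISF library fell inside the SF range. At 10 days they were 7.31, 30.8 and 86.2 GeTMM in ISF (n = 7) against 1.63, 2.94 and 26.2 GeTMM in SF (n = 7), the highest SF value being that of Lurie. The gene was higher in ISF by a log2 fold change 2.31 ± 0.38 (SE), FDR = 3.52e-06, at 6 days and by 2.80 ± 0.41, FDR = 7.49e-07, at 10 days, that is 4.96-fold and 6.98-fold. ISF exceeded SF in 8 of 8 horses at 6 days and in 7 of 7 at 10 days. At 96 hours the difference was 1.09 ± 0.38, FDR = 0.0563, not past the threshold, with 8 of 8 horses higher in ISF; with horse as a block its FDR was 0.0307, and it was 0.0428 without the 6-day SF library of Moon. Among horses the ISF values at 6 days spread from 4.51 in Moon to 37.5 in Catnip and 61.8 in Flash.

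Hexokinases phosphorylate glucose on entry. HK1, the constitutive form, was at 133, 196 and 230.0 GeTMM in ISF and 58.1, 91.3 and 113 GeTMM in SF at 6 days, with no overlap between the groups. It was higher in ISF at 6 days (log2 fold change 1.06 ± 0.13 (SE), FDR = 1.27e-09) and at 10 days (0.77 ± 0.13, FDR = 1.62e-05). At 96 hours the HK1 difference was 0.35 ± 0.13, FDR = 0.0652, and with horse as a block the FDR was 0.0193. HK2, the inducible form, was much lower in level, and the groups overlapped at both late times. Its values were 2.47, 7.77 and 70.1 GeTMM in ISF and 0.728, 4.24 and 9.9 GeTMM in SF at 6 days, and 4.47, 16.5 and 85.6 and 0.955, 2.35 and 12.3 GeTMM at 10 days. HK2 was higher in ISF at 6 days (log2 fold change 1.31 ± 0.43 (SE), FDR = 0.0156) and at 10 days (2.43 ± 0.46, FDR = 6.63e-05); the call at 6 days was lost without Flash (FDR = 0.107), whose ISF library held the highest value, 70.1 GeTMM. HK3, a form found mainly in myeloid cells, went the other way. At 10 days HK3 stood at 2.54, 5.31 and 7.48 GeTMM in ISF and 3.81, 37.6 and 132 GeTMM in SF, a log2 fold change -1.92 ± 0.52 (SE), FDR = 0.00533, and was lower in ISF in 6 of 7 horses. The HK3 call was lost without Ollie (FDR = 0.0553). At 6 days the HK3 difference was -0.87 ± 0.49, FDR = 0.18.

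**Figure D2:**
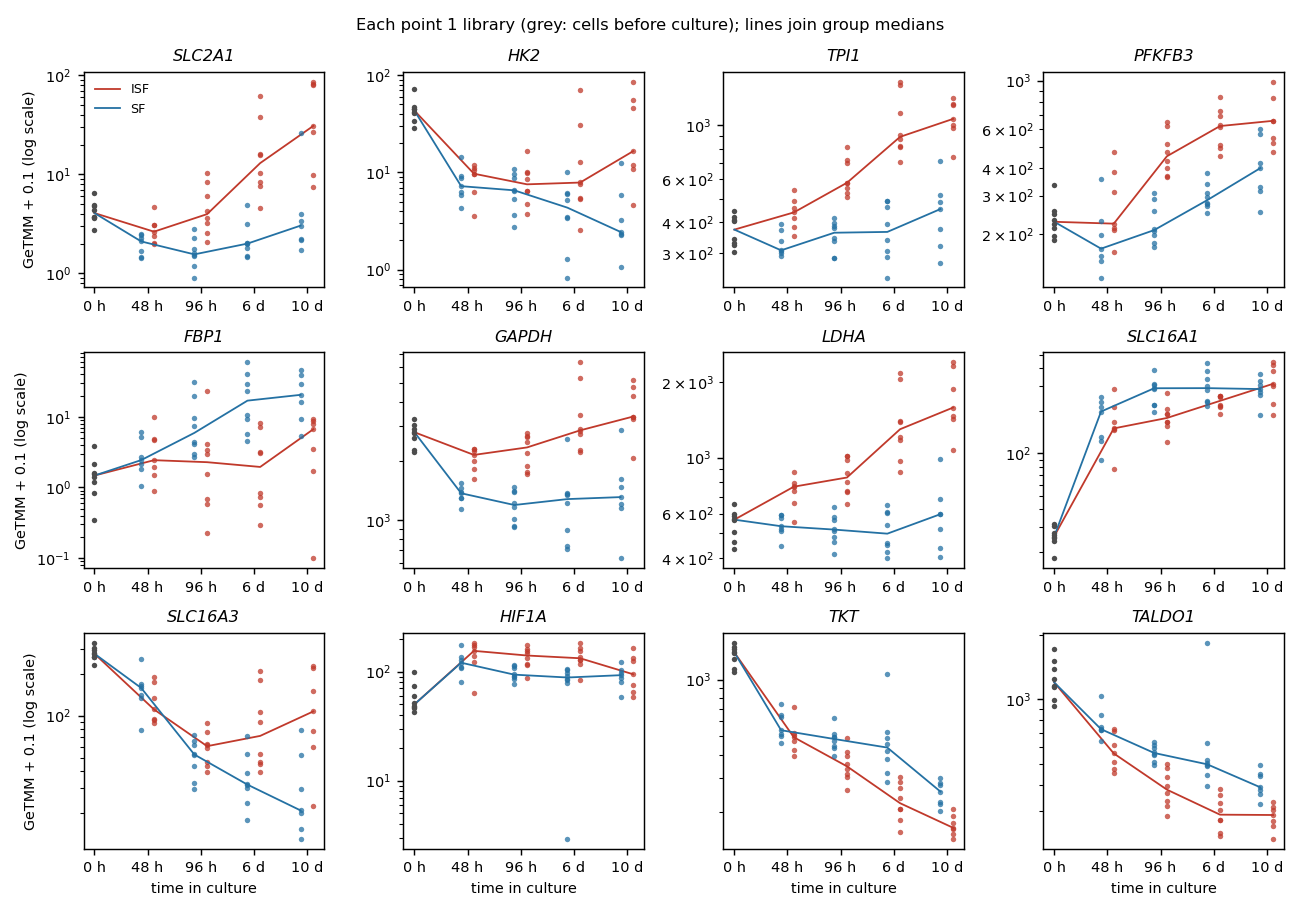
GeTMM plus 0.1 (log axis) of 12 genes against time in culture; each point is 1 library (red, ISF; blue, SF; grey, before culture) and lines join the group medians. The ISF medians of SLC2A1, TPI1, GAPDH and LDHA lie above the SF medians at 6 and 10 days, SLC16A1 rises in both fluids, and the 6-day SF library of Moon lies far below the rest for HIF1A (2.83) and far above for TALDO1 (1837).

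In upper glycolysis, 6 of 7 genes were higher in ISF at 6 days (all genes: 16.7%) and 6 of 7 at 10 days (all genes: 9.95%). PFKM was the exception at both times. PFKP, the platelet form of phosphofructokinase, was the earliest to differ. Its values were 45.3, 55.0 and 73.4 GeTMM in ISF and 31.9, 34.1 and 48.7 GeTMM in SF at 48 hours, higher in ISF in 7 of 7 horses (log2 fold change 0.61 ± 0.16 (SE), FDR = 0.0229). That call was lost without each of Catnip, Dreamer, Flash, Lurie and Ollie in turn (FDR between 0.0575 and 0.122). By 96 hours PFKP had reached 64.8, 89.9 and 113 GeTMM in ISF against 32.0, 39.5 and 55.6 GeTMM in SF, and at 6 days 88.7, 130.3 and 172 against 30.6, 42.2 and 76.5 GeTMM. The groups did not overlap at either time, and the log2 fold changes were 1.11 ± 0.15, FDR = 1.51e-07, at 96 hours, 1.44 ± 0.15, FDR = 1.35e-11, at 6 days and 0.92 ± 0.16, FDR = 9.13e-06, at 10 days. TPI1, triose phosphate isomerase, showed the same separation, at 704, 893 and 1499 GeTMM in ISF and 238, 366 and 489.9 GeTMM in SF at 6 days and 737, 1058 and 1281 and 272, 453 and 712 GeTMM at 10 days. Every ISF library lay above every SF library for TPI1 at 96 hours, 6 days and 10 days. The TPI1 differences were 0.81 ± 0.15, FDR = 0.000128, at 96 hours, 1.44 ± 0.15, FDR = 3.84e-11, at 6 days and 1.29 ± 0.16, FDR = 1.73e-08, at 10 days.

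ALDOA, the aldolase that carried about all of the aldolase transcript, stood at 1154, 1704 and 2740.4 GeTMM in ISF against 508, 744 and 1599.5 GeTMM in SF at 6 days, where the highest SF value was that of Moon. At 10 days ALDOA was at 1128, 2094 and 3392 and 512, 882 and 1178 GeTMM. It was higher in ISF by 1.13 ± 0.18, FDR = 2.27e-06, at 6 days and by 1.40 ± 0.20, FDR = 2.94e-07, at 10 days. ALDOC, a minor aldolase, ranged widely, at 4.72, 18.4 and 93.3 GeTMM in ISF and 2.36, 9.48 and 15.8 GeTMM in SF at 6 days. The ALDOC difference at 6 days (1.12 ± 0.44, FDR = 0.0454) was past the threshold but missed it in 13 of 17 alternatives, among them without each of Catnip, Dealings, Dreamer, Flash, Ollie and RimRun in turn (FDR between 0.0602 and 0.207) and without the 6-day SF library of Moon (1.03, FDR = 0.0725). By 10 days ALDOC was at 5.87, 40.2 and 88.3 and 1.59, 5.15 and 37.7 GeTMM (1.96 ± 0.47, FDR = 0.00159). GPI, glucose-6-phosphate isomerase, averaged 500.3 ± 157 GeTMM in ISF and 255 ± 62.1 (SD) in SF at 10 days and was higher by 0.65 ± 0.17, FDR = 0.00207, at 6 days and 0.94 ± 0.18, FDR = 7.64e-05, at 10 days. PFKL, the liver form of phosphofructokinase, averaged 109 ± 54.9 and 54.6 ± 22.5 GeTMM at 10 days. Its calls at 6 days (0.68 ± 0.27, FDR = 0.0451) and at 10 days (0.90 ± 0.28, FDR = 0.0177) depended on single horses: the first was lost without each of Catnip, Dealings, Dreamer, Flash, Ollie and RimRun in turn (FDR between 0.0582 and 0.331) and the other without each of Catnip, Dreamer, Ollie and RimRun in turn (FDR between 0.0566 and 0.119). PFKM, the muscle form, stayed between 0.685 and 6.4 GeTMM in culture and was not called between the fluids at any time, except at 6 days without Dealings (FDR = 0.022).

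Flux through phosphofructokinase is set by a metabolite that PFKFB3 and PFKFB4 make and break, and FBP1 runs the opposing step of gluconeogenesis. PFKFB3 was higher in ISF at 96 hours, 6 days and 10 days. It was at 363, 453 and 648 GeTMM in ISF and 176, 209 and 307 GeTMM in SF at 96 hours, and at 456, 621 and 844 and 249.6, 286 and 380.5 GeTMM at 6 days. The groups did not overlap at those 2 times, and the differences were 1.06 ± 0.18, FDR = 3.58e-05, at 96 hours, 1.03 ± 0.18, FDR = 1.12e-05, at 6 days and 0.71 ± 0.20, FDR = 0.00573, at 10 days. PFKFB4 was called at 6 days alone (0.71 ± 0.17, FDR = 0.00118). Its lowest SF value then, 5.63 GeTMM, was that of Moon, and without that library the difference was 0.44, FDR = 0.00373. FBP1 was the gene most strongly lower in ISF. Its values were 0.195, 1.85 and 7.98 GeTMM in ISF against 4.45, 16.8 and 59.0 GeTMM in SF at 6 days, and 0, 6.57 and 9.29 against 5.22, 20.4 and 45.3 GeTMM at 10 days. FBP1 was lower in ISF in 8 of 8 horses at 6 days (log2 fold change -2.54 ± 0.53 (SE), FDR = 0.000145) and in 6 of 7 at 10 days (-2.00 ± 0.56, FDR = 0.00714), although the groups overlapped at both times. At 96 hours the FBP1 difference was -1.34 ± 0.53, FDR = 0.0934, with an FDR of 0.0163 with horse as a block and 0.0414 without RimRun.

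All 6 genes of lower glycolysis were higher in ISF at 10 days (all genes: 9.95%), and 5 of 6 at 6 days (all genes: 16.7%). GAPDH, the oxidizing step, had the highest medians of the set in both fluids at 6 days, at 2212, 2855 and 6349.6 GeTMM in ISF and 705, 1274 and 2585 GeTMM in SF. At 48 hours its groups already stood clear of each other, at 1616, 2139.6 and 2294 and 1131, 1364 and 1540.0 GeTMM, without passing the threshold (0.60 ± 0.22, FDR = 0.156). From 96 hours on GAPDH was called higher, by 0.93 ± 0.21, FDR = 0.00126, then 1.47 ± 0.21, FDR = 9.3e-08, at 6 days and 1.43 ± 0.22, FDR = 1.95e-06, at 10 days. Because GAPDH often serves as a reference gene in quantitative PCR, its 2.78-fold difference at 6 days is given here as a value of its own. PGK1, which makes the first ATP of the pathway, was at 400.5, 589.7 and 1338 GeTMM in ISF and 206, 241 and 286 GeTMM in SF at 6 days, again without overlap. At 48 hours PGK1 had been lower in ISF in 7 of 7 horses, by a difference that was not called (-0.22 ± 0.19, FDR = 0.651). The difference was 1.44 ± 0.18, FDR = 3.13e-09, at 6 days and 1.47 ± 0.19, FDR = 3.63e-08, at 10 days.

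PGAM1, phosphoglycerate mutase, was at 906, 1152 and 2206 GeTMM in ISF and 141, 472 and 746 GeTMM in SF at 6 days, groups that did not overlap (1.66 ± 0.20, FDR = 1.91e-09). It was also higher at 96 hours (0.66 ± 0.20, FDR = 0.0232) and at 10 days (1.27 ± 0.21, FDR = 8.39e-06), the call at 96 hours being lost without each of Dealings, Dreamer, Flash, Lurie and Ollie in turn (FDR between 0.0529 and 0.094) and without the 96-hour ISF libraries from Dealings and Dreamer (0.64, FDR = 0.0649). ENO1, the main enolase, was at 1312, 2009 and 4183 GeTMM in ISF and 513, 796 and 1881 GeTMM in SF at 6 days. It was higher by 0.72 ± 0.19, FDR = 0.00654, at 96 hours, 1.37 ± 0.19, FDR = 5.23e-08, at 6 days and 1.43 ± 0.20, FDR = 2.94e-07, at 10 days. PKM, pyruvate kinase, was at 1284, 1476 and 1576 GeTMM in ISF and 441, 733 and 1039 GeTMM in SF at 10 days, with all 7 ISF libraries above all 7 SF libraries. Its difference was 0.61 ± 0.15, FDR = 0.00318, at 96 hours, 1.21 ± 0.15, FDR = 3.13e-09, at 6 days and 0.99 ± 0.16, FDR = 3.52e-06, at 10 days. The highest SF values of ENO1 and PKM at 6 days, 1881 and 1239.8 GeTMM, were those of Moon, and without that library both genes separated fully. ENO2, an enolase best known from neurons, was low, at 2.19, 7.11 and 41.2 GeTMM in ISF at 6 days and 0.812, 4.87 and 17.0 GeTMM in SF. By 10 days ENO2 had reached 10.5, 43.2 and 177 GeTMM in ISF and 5.54, 15.6 and 32.5 GeTMM in SF, a log2 fold change 1.83 ± 0.51 (SE), FDR = 0.0064. It was not called between the fluids before then (0.88 ± 0.48, FDR = 0.16, at 6 days).

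Pyruvate is reduced to lactate by lactate dehydrogenase, and lactate crosses the membrane through monocarboxylate transporters. LDHA, the form that favors lactate, was at 653, 834 and 1018 GeTMM in ISF and 415, 518 and 637 GeTMM in SF at 96 hours. At 6 days it was at 878, 1298 and 2167 and 398, 499 and 649 GeTMM, and at 10 days at 1070.5, 1583 and 2395 and 402, 596 and 991 GeTMM. ISF lay above SF with no overlap at all 3 times, and the differences were 0.70 ± 0.15, FDR = 0.00116, at 96 hours, 1.40 ± 0.15, FDR = 1.42e-10, at 6 days and 1.53 ± 0.16, FDR = 3.93e-10, at 10 days. LDHB, the form that favors pyruvate, was not called at any time. Its largest difference was at 10 days (0.55 ± 0.22, FDR = 0.0613), where ISF was higher in 7 of 7 horses; with horse as a block the FDR was 0.0066, without the 6-day SF library of Moon it was 0.0271 and without Moon 0.0441. SLC16A3 (MCT4), an exporter typical of glycolytic cells, was at 39.5, 71.4 and 210.3 GeTMM in ISF and 17.8, 31.8 and 71.8 GeTMM in SF at 6 days. At 10 days its values were 22.5, 107 and 229 and 12.9, 20.7 and 78.3 GeTMM, overlapping through the low ISF value of Moon and the high SF values of Catnip and Lurie. SLC16A3 was higher in ISF by 1.19 ± 0.33, FDR = 0.00444, at 6 days and 1.83 ± 0.36, FDR = 0.0001, at 10 days. SLC16A1 (MCT1), which carries lactate in either direction, was lower in ISF at 96 hours, at 121, 178 and 269 against 196, 289 and 387 GeTMM and in 8 of 8 horses (-0.60 ± 0.19, FDR = 0.0297). That call was lost without each of Dealings, Dreamer and Ollie in turn (FDR between 0.0733 and 0.108) and without the 96-hour ISF libraries from Dealings and Dreamer (-0.62, FDR = 0.0614).

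At the branch into mitochondria, PDHA1, a catalytic subunit of pyruvate dehydrogenase, was modestly higher in ISF at 96 hours (0.46 ± 0.13, FDR = 0.0129), 6 days (0.57 ± 0.13, FDR = 0.000426) and 10 days (0.48 ± 0.14, FDR = 0.00808). Its means were 61.6 ± 15.6 GeTMM in ISF and 40.8 ± 9.13 GeTMM (SD) in SF at 6 days, and ISF was higher in 8 of 8 horses. The PDHA1 call was lost at 96 hours without each of Dreamer, Lurie and Ollie in turn (FDR between 0.0502 and 0.0706) and at 10 days without Dealings (FDR = 0.0889). PDK1, the kinase that switches pyruvate dehydrogenase off and a known HIF-1 target, did not follow the glycolytic genes. PDK1 was lower in ISF in 7 of 7 horses at 48 hours and 8 of 8 at 96 hours, without a call (-0.64 ± 0.28, FDR = 0.127, at 96 hours; FDR = 0.0223 with horse as a block). At 6 days PDK1 was at 42.5, 69.7 and 250.5 GeTMM in ISF and 86.1, 108 and 169 GeTMM in SF, the ISF libraries of Catnip (236) and Flash (250.5) standing far above the other 6, which lay at or under 97.9 GeTMM.

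HIF1A was at 84.1, 132 and 183 GeTMM in ISF and 2.83, 88.0 and 105 GeTMM in SF at 6 days. Here 1 library decided the size: the SF library of Moon held 2.83 GeTMM and the 7 other SF libraries 78.7 to 105 GeTMM. The difference was 1.12 ± 0.33, FDR = 0.00629, with all libraries and 0.55, FDR = 0.0188, without that library, and ISF was higher in 8 of 8 horses. At 10 days HIF1A did not differ past the threshold, at 58.1, 94.2 and 165 and 57.8, 92.4 and 122 GeTMM (0.10 ± 0.35, FDR = 0.891).

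The pentose phosphate genes did not move as a group. TALDO1 and TKT, the enzymes of the branch that returns carbon to glycolysis, were lower in ISF at 96 hours, 6 days and 10 days. TKT was at 156, 221 and 306 GeTMM in ISF and 288, 436 and 1068 GeTMM in SF at 6 days and was lower in ISF in 8 of 8 horses. Its difference was -0.44 ± 0.15, FDR = 0.04997, at 96 hours, -1.01 ± 0.15, FDR = 5.22e-07, at 6 days and -0.56 ± 0.16, FDR = 0.01, at 10 days. The TKT call at 96 hours was lost in 11 of 17 alternatives, including without each of Catnip, Dealings, Dreamer, Flash, Lurie, Ollie and RimRun in turn (FDR between 0.055 and 0.126) and without the 96-hour ISF libraries from Dealings and Dreamer (-0.38, FDR = 0.173); the call at 10 days was lost without Catnip (FDR = 0.0537). TALDO1 averaged 298 ± 54.1 GeTMM (SD) in ISF at 6 days, with all 8 libraries below all 8 SF libraries, whose lowest, median and highest values were 395, 497 and 1837 GeTMM. The TALDO1 difference was -0.56 ± 0.16, FDR = 0.019, at 96 hours, -0.98 ± 0.16, FDR = 4.31e-06, at 6 days and -0.51 ± 0.18, FDR = 0.0318, at 10 days, and was lost at 96 hours without each of Catnip, Dealings, Dreamer and Flash in turn (FDR between 0.0533 and 0.081) or without the 96-hour ISF libraries from Dealings and Dreamer (-0.52, FDR = 0.0724), and at 10 days without each of Catnip, Dealings, Dreamer, Ollie and RimRun in turn (FDR between 0.0514 and 0.0981). Without the SF library of Moon, which held the highest values of both genes, the differences at 6 days were -0.83, FDR = 1.12e-06, for TKT and -0.74, FDR = 3.02e-06, for TALDO1. PGD, an NADPH-yielding enzyme of the oxidative branch, was lower in ISF at 48 hours (-0.47 ± 0.13, FDR = 0.0494; in 7 of 7 horses) and higher at 6 days (0.45 ± 0.13, FDR = 0.00435; in 7 of 8 horses). The PGD call at 48 hours was lost in 12 of 17 alternatives, including without each of Catnip, Dealings, Dreamer, Flash, Lurie, Ollie and RimRun in turn (FDR between 0.0613 and 0.246). Another of the 12 was the fit without the 96-hour ISF libraries from Dealings and Dreamer (-0.47, FDR = 0.0529). TIGAR, a phosphatase that steers sugar phosphates toward this pathway, was not called between the fluids, and with horse as a block its difference at 6 days (0.33 ± 0.17, FDR = 0.137) had an FDR of 0.0468.

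Whether the gap between the fluids itself changed with time was tested as an interaction. From 48 hours to 6 days the ISF minus SF difference grew for 12 of the 31 genes and fell for 2 (all genes: 3.53% and 1.85%). The gene with the smallest FDR was PGK1, whose difference went from -0.22 to 1.44 (change 1.67 ± 0.26, FDR = 3.31e-05). HK1 (1.17 ± 0.18, FDR = 4.38e-05), PGD (0.92 ± 0.18, FDR = 0.00108), ALDOA (1.26 ± 0.27, FDR = 0.00215) and TPI1 (1.02 ± 0.22, FDR = 0.00233) followed. The 2 that fell were FBP1 (-2.66 ± 0.77, FDR = 0.029) and TKT (-0.81 ± 0.22, FDR = 0.02), and neither fall was called without Dreamer or without Ollie. With horse as a block the change was also called for GAPDH (FDR = 0.0455), SLC16A3 (0.0217) and TIGAR (0.0186). From 6 to 10 days no change was called by limma in either direction, against 0.226% of all genes, and 4 of the 31 genes had an unadjusted p under 0.05; voom on recovered reads called none either.

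In the first 48 hours of culture SLC16A1, ENO2 and HIF1A rose and HK2, HK3 and TKT fell in both fluids. In ISF 9 genes rose and 10 fell (all genes: 25.3% and 27.4%), and in SF 4 rose and 8 fell (all genes: 22.3% and 23.1%). Both comparisons use the same 8 uncultured libraries. The largest rise was that of SLC16A1, from 17.9, 25.7 and 31.6 GeTMM before culture to 77.6, 150.0 and 286 GeTMM in ISF and 89.3, 198 and 249.8 GeTMM in SF. Every cultured library lay above every uncultured one, and the log2 fold changes were 2.59 ± 0.20, FDR = 8.05e-18, in ISF and 2.65 ± 0.20, FDR = 3.97e-18, in SF. ENO2 rose from 0.0495, 0.389 and 0.696 GeTMM to 1.36, 2.43 and 10.2 GeTMM in ISF and 0.399, 2.83 and 4.15 GeTMM in SF (1.60 ± 0.49, FDR = 0.00473, and 1.31 ± 0.49, FDR = 0.0241), the SF call being lost without each of Dealings, Lurie and Ollie in turn (FDR between 0.0519 and 0.0753). HIF1A rose from 42.4, 49.9 and 99.4 GeTMM to 63.5, 154 and 180.5 and 79.3, 120.3 and 174 GeTMM (1.26 ± 0.34, FDR = 0.00124, in ISF; 1.06 ± 0.34, FDR = 0.00782, in SF).

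Among the genes that fell, HK2 dropped from 28.9, 43.1 and 72.6 GeTMM to 3.48, 9.61 and 11.9 GeTMM in ISF and 4.2, 7.12 and 14.2 GeTMM in SF (-2.23 ± 0.45, FDR = 2.45e-05, and -2.38 ± 0.45, FDR = 1.05e-05). HK3 fell from 924, 1086 and 1272 GeTMM to 201, 273 and 389.7 and 109.6, 326 and 518 GeTMM (-1.93 ± 0.51, FDR = 0.000998, and -1.86 ± 0.51, FDR = 0.0019). TKT went from 1094, 1390.5 and 1564 GeTMM to 393, 495 and 711 and 459, 539 and 740.5 GeTMM (-1.43 ± 0.16, FDR = 1.15e-11, and -1.23 ± 0.16, FDR = 1.7e-09), with no cultured library in the uncultured range for any of these 3 genes. SLC16A3 fell by 1.20 ± 0.34, FDR = 0.00259, in ISF and by 0.90 ± 0.34, FDR = 0.0269, in SF, a call that was lost in SF without each of Dealings, Flash and Ollie in turn (FDR between 0.0518 and 0.0858). TALDO1 fell by 1.11 ± 0.17, FDR = 1.04e-07, and 0.69 ± 0.17, FDR = 0.000644, and GPI fell by 0.86 ± 0.17, FDR = 2.57e-05, and 1.15 ± 0.17, FDR = 1.21e-07. GAPDH fell in SF (-1.01 ± 0.21, FDR = 7.38e-05) and was not called in ISF (-0.41 ± 0.21, FDR = 0.0994), where without Moon its FDR was 0.045. PFKP rose in ISF (0.75 ± 0.15, FDR = 2.89e-05) and was not called in SF (0.13 ± 0.15, FDR = 0.503). PKM and LDHA were called in ISF by 0.42 ± 0.15, FDR = 0.0166, and 0.43 ± 0.16, FDR = 0.0193, but not without Catnip (FDR = 0.0786 and 0.0551). The difference between the fluids at 48 hours passed the threshold for PFKP, with the losses named above. For GAPDH, PKM and LDHA it did not, but with only the 2 groups compared its FDR was 0.0184, 0.047 and 0.0415, and with library weights 0.00502, 0.00345 and 0.0112. The remaining rises were PFKL and LDHB in ISF and TIGAR in both fluids. The remaining falls were ALDOA in both fluids and PGD, PFKFB4 and PGK1 in ISF. PFKL averaged 21.6 GeTMM before culture and 36.3 in ISF at 48 hours, and LDHB 213 and 334. The other changes in ISF were of 0.43 to 0.63 on the log2 scale. Several of the remaining calls depended on single horses. Of these, PFKL in ISF was lost without Ollie (FDR = 0.101) and without RimRun (0.0888), PFKFB4 in ISF without each of Catnip, Dealings, Dreamer, Flash and RimRun in turn (FDR between 0.0605 and 0.12), PGK1 in ISF without each of Catnip, Dreamer, Flash and RimRun in turn (FDR between 0.0606 and 0.128) and ALDOA in SF without each of Catnip, Dreamer, Flash and Ollie in turn (FDR between 0.0521 and 0.0879). With horse as a block HK1 (FDR = 0.0218) and PDHA1 (0.0272) were also called in ISF, and SLC2A1 (0.0327) and LDHB (0.0129) in SF. Over the same interval the neutrophil precursor list went from 9.65 to 10.64 (mean log2(GeTMM + 1)) to 7.05 to 9.51 in ISF and 6.63 to 9.09 in SF, the erythroid list from 3.49 to 7.30 to 0.28 to 1.41 and 0.23 to 2.33, and the macrophage list from 3.65 to 4.61 to 9.08 to 9.95 and 8.56 to 9.44; their part in these changes was not tested.

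**Figure D3:**
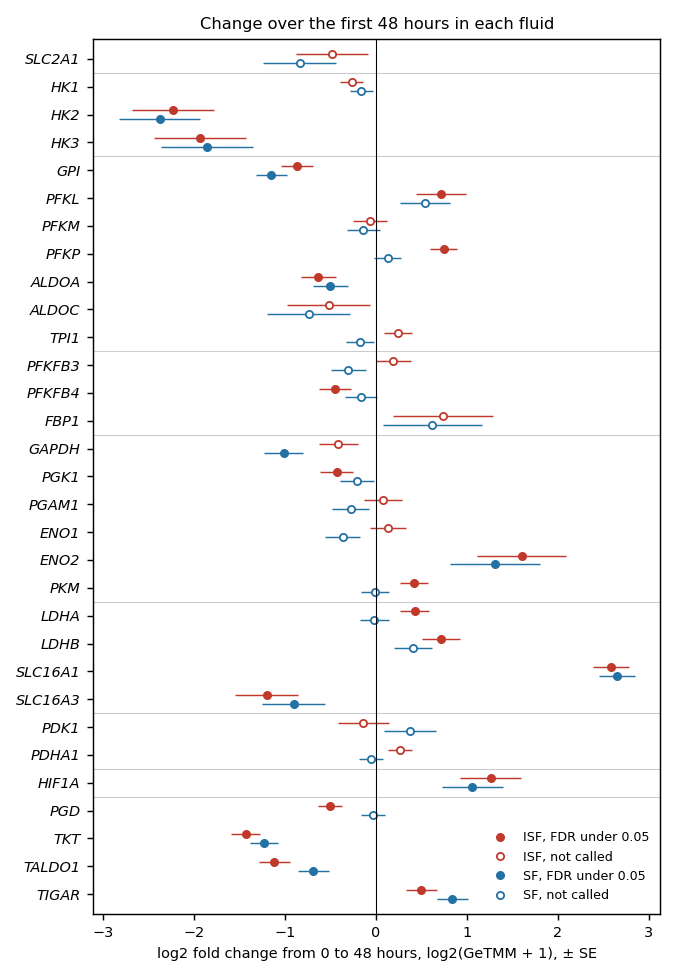
Log2 fold change from 0 to 48 hours (x axis, with SE bars) for the 31 genes in ISF (red) and SF (blue); filled points have FDR under 0.05. SLC16A1 lies near 2.6 in both fluids, HK2 and HK3 lie near -2, and GAPDH, PFKP, PKM and LDHA lie further right in ISF than in SF.

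Over each later step fewer of the genes were called than in the first 48 hours, and the same held for all genes tested. From 48 to 96 hours 3 genes rose and 4 fell in ISF (all genes: 8.54% and 10.4%), and 1 rose and 8 fell in SF (all genes: 11.5% and 15.8%; 3 rose with horse as a block, with FBP1 at an FDR of 0.036 and PDK1 at 0.00613). In ISF the block also called HK3 (FDR = 0.034) and PDK1 (0.0343) over this step. The genes that rose in ISF were PFKFB3 (0.81 ± 0.19, FDR = 0.0011), PFKP (0.64 ± 0.15, FDR = 0.00128) and TPI1 (0.49 ± 0.16, FDR = 0.018), the last call being lost without Dealings (FDR = 0.0704) and without Ollie (0.0707). The 4 that fell in ISF were SLC16A3 (-1.06 ± 0.34, FDR = 0.0212), PGD (-0.62 ± 0.13, FDR = 0.000261), TKT (-0.49 ± 0.16, FDR = 0.0213) and TALDO1 (-0.58 ± 0.17, FDR = 0.0107), of which SLC16A3 was lost without each of Dreamer, Ollie and RimRun in turn (FDR between 0.0587 and 0.0675) and TKT without each of Dreamer, Flash, Ollie and RimRun in turn (FDR between 0.0536 and 0.0825). Without the 96-hour ISF libraries from Dealings and Dreamer, TPI1 (FDR = 0.0535), SLC16A3 (0.0527) and TKT (0.0917) were not called over this step. In SF, PGD fell the most clearly (-1.10 ± 0.13, FDR = 9.54e-10), followed by SLC16A3 (-1.59 ± 0.34, FDR = 0.00026) and PGK1 (-0.76 ± 0.18, FDR = 0.000953). The other SF falls were HK1, HK3, ALDOA, TALDO1 and TIGAR, and the 1 rise was SLC16A1. TALDO1 was lost without each horse but Moon in turn (FDR between 0.0517 and 0.132). HK3 was lost without each of Dealings, Dreamer, Lurie, Ollie and RimRun in turn (FDR between 0.0563 and 0.104). HK1 and ALDOA were lost without Dreamer (FDR = 0.0504 and 0.0747) and without Lurie (0.0567 and 0.0779). TIGAR was lost without Dreamer (FDR = 0.0651) and without RimRun (0.0519). From 96 hours to 6 days 8 genes rose and 2 fell in ISF (all genes: 2.83% and 3.54%), while in SF none rose by limma (2 had an unadjusted p under 0.05 upward, and voom called none) and 1, PGD, fell (all genes: 0.432% and 1.61%). The 8 were TPI1 (0.68 ± 0.15, FDR = 0.00264), LDHA (0.68 ± 0.15, FDR = 0.00359), SLC2A1 (1.52 ± 0.38, FDR = 0.00885; lost without Catnip (FDR = 0.0741)), PFKP, PGK1, HK1, PKM and PGAM1. Of the others, PFKP was lost without RimRun (FDR = 0.0658), PGK1 without Catnip (FDR = 0.0876) and without RimRun (0.0558), HK1 without each of Catnip, Dreamer, Flash, Lurie and RimRun in turn (FDR between 0.0711 and 0.137), PKM without each of Catnip, Dreamer, Flash, Lurie, Ollie and RimRun in turn (FDR between 0.0693 and 0.186) and PGAM1 without each of Catnip, Dreamer, Flash, Lurie, Ollie and RimRun in turn (FDR between 0.0645 and 0.169). HK1 (FDR = 0.0606) and PGAM1 (0.0652) were also lost without the 96-hour ISF libraries from Dealings and Dreamer. The 2 that fell in ISF were TKT (-0.65 ± 0.15, FDR = 0.00484) and HK3 (-1.69 ± 0.49, FDR = 0.0241; lost without each of Dealings, Flash, Ollie and RimRun in turn (FDR between 0.053 and 0.0964)). With horse as a block ALDOA (FDR = 0.0298) and PDK1 (0.016) were also called higher in ISF. PGD in SF was lost without Dreamer (FDR = 0.0531) and without RimRun (0.0683). Without the 6-day SF library of Moon the count of genes rising in ISF over this step was 13, since that library enters the shared estimate of the spread. Leaving out each horse in turn gave 3 to 13, the lowest count being without Catnip and without RimRun. From 48 to 96 hours in SF, the 8 falls came to 3 without Dreamer.

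From 6 to 10 days 1 gene rose and 2 fell in ISF (all genes: 5.09% and 5.44%), and 1 rose and 2 fell in SF (all genes: 3.19% and 1.59%). In ISF, ENO2 rose (2.42 ± 0.49, FDR = 0.000437) and HK3 (-2.78 ± 0.51, FDR = 0.000104) and PGD (-0.54 ± 0.13, FDR = 0.00298) fell; with horse as a block SLC2A1 was also called higher (FDR = 0.0257) and TKT lower (0.0291). In SF, PFKP rose (0.56 ± 0.15, FDR = 0.0225; lost without each of Flash, Lurie and Ollie in turn (FDR between 0.0694 and 0.106)), and TKT (-0.86 ± 0.16, FDR = 0.00058) and HK3 (-1.74 ± 0.51, FDR = 0.0329; lost without each of Dreamer, Lurie, Moon, Ollie and RimRun in turn (FDR between 0.0595 and 0.136)) fell. HK3 in SF was also lost without the 6-day SF library of Moon (-1.56, FDR = 0.0967). With horse as a block 5 genes rose in SF over this step, ENO2 (FDR = 0.0193), PFKFB3 (0.0365), PFKM (0.0459) and HK1 (0.0469) being added, and TALDO1 was also called lower (0.0137).

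Because GeTMM is per length, the members of an enzyme family can be set against each other within a library; these shares are described without a test. The share of HK1 in the hexokinase pool rose and that of HK3 fell in both fluids. In level, HK1 averaged 164 GeTMM before culture, and 200 in ISF and 115 in SF at 10 days. HK3 averaged 1066 GeTMM before culture, and 5.12 in ISF and 40.7 in SF at 10 days. HK3 made up 83.6% ± 1.32 (SD, n = 8) of the summed hexokinase GeTMM before culture and HK1 13.0% ± 1.28. At 6 days HK1 held 73.3% ± 17.5 in ISF and 52.7% ± 18.9 in SF, and at 10 days 85.8% ± 7.7 and 77.3% ± 18.0. HK3 was down to 2.45% ± 1.28 in ISF at 10 days, over a range of 0.748% to 4.54%, and to 20.3% ± 17.8 in SF, over 3.79% to 53.1%. HK2 rose to 11.8% ± 8.31 in ISF at 10 days and stayed at 2.44% ± 1.9 in SF, its share being higher in ISF in all 7 horses.

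In SF the lactate dehydrogenase pool shifted toward LDHB. LDHB made up 27.3% ± 6.05 of the LDHA and LDHB sum before culture, 26.9% ± 8.49 in ISF at 6 days and 44.7% ± 8.16 in SF, where the SF share was the higher in all 8 horses. Monocarboxylate transporters turned from SLC16A3 to SLC16A1: SLC16A3 held 91.5% ± 1.69 of their sum before culture and 43.3% ± 13.0 and 47.4% ± 15.3 in ISF and SF at 48 hours. At 10 days it held 25.1% ± 9.13 in ISF, over a range of 10.8% to 36.5%, and 10.8% ± 9.11 in SF, over 3.81% to 29.7%. Among phosphofructokinases, PFKP held 63.5% ± 7.27 in ISF and 48.0% ± 5.04 in SF at 96 hours, higher in ISF in all 8 horses, with PFKL at 35.1% ± 7.23 and 49.9% ± 4.91 and PFKM at 1.48% ± 0.229 and 2.13% ± 0.446. Between the enzymes that set the activator of phosphofructokinase, PFKFB3 held 93.9% ± 1.92 in ISF and 88.7% ± 1.82 in SF at 96 hours. ALDOA made up 98.6% ± 0.705 of the 2 aldolases in ISF at 10 days, and ENO2 never exceeded 6.46% of the 2 enolases in any library.

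**Figure D4:**
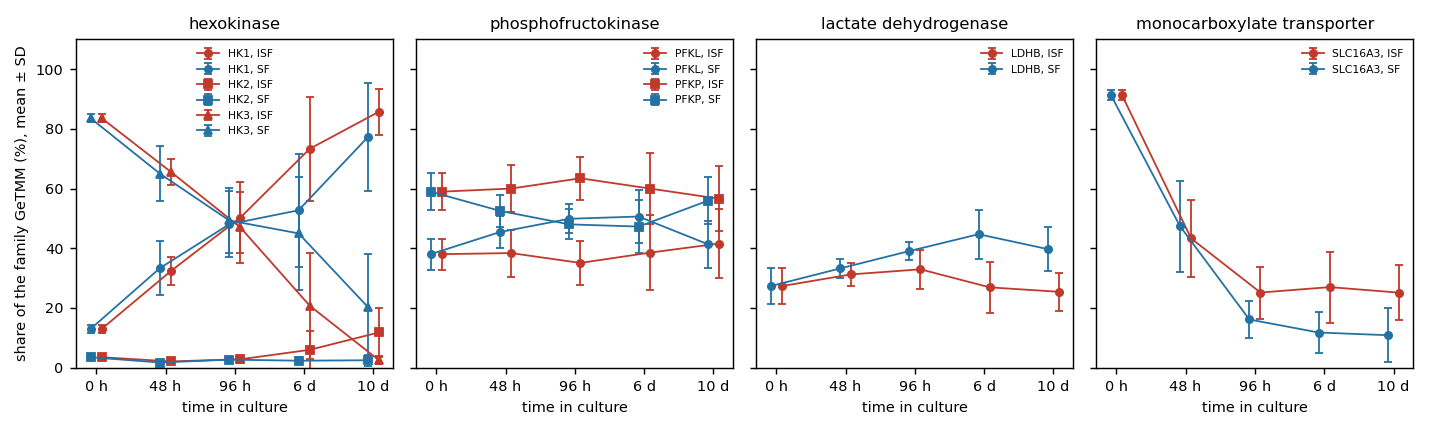
Share of each enzyme in the summed GeTMM of its family (percent, mean with SD bars) against time in culture, for ISF (red) and SF (blue); LDHB is shown against LDHA and SLC16A3 against SLC16A1. HK3 falls from 83.6% to 2.45% in ISF while HK1 rises to 85.8%, and the LDHB share parts between the fluids at 6 and 10 days.

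Horses differed in how far the fluids parted. Taking the difference within each horse, the median over the 31 genes at 6 days was 1.99 (log2) in Flash, 1.07 in Catnip and 0.94 in RimRun, and it was lowest in Ollie (0.33) and Moon (0.16). In Moon the SF library is the one that stood apart. At 10 days the medians ran from 1.30 in Catnip and 1.26 in Dealings to 0.40 in Lurie and 0.30 in Moon. The ISF libraries of Catnip and Flash at 6 days held the 2 highest values of their group for 13 of the 31 genes, among them SLC2A1, HK2, LDHA, SLC16A3 and PDK1. In SF at 10 days the library of Lurie was the highest for 17 genes and that of Dealings the lowest for 18. In ISF at 10 days the library of Moon was the lowest for 18. These medians and ranks were taken over the 31 genes alone. Whether the same libraries stood out over all genes was not tested.

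At 6 days 11 of the 31 genes were higher in ISF in every horse and 3 were lower in every horse (all genes: 8.72% and 6.16%), and at 10 days 15 and 2 (all genes: 9.52% and 10.6%). The ISF and SF libraries did not overlap at all for 7 genes with ISF above and 1 with ISF below at 6 days (all genes: 2.1% and 1.24%), namely HK1, PFKP, TPI1, PFKFB3, PGK1, PGAM1 and LDHA above and TALDO1 below. Without the SF library of Moon these counts were 11 and 1 (all genes: 3.14% and 2.77%). At 10 days they were 3 and 0 (all genes: 2.26% and 2.69%), the 3 being TPI1, PKM and LDHA.

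**Figure D5:**
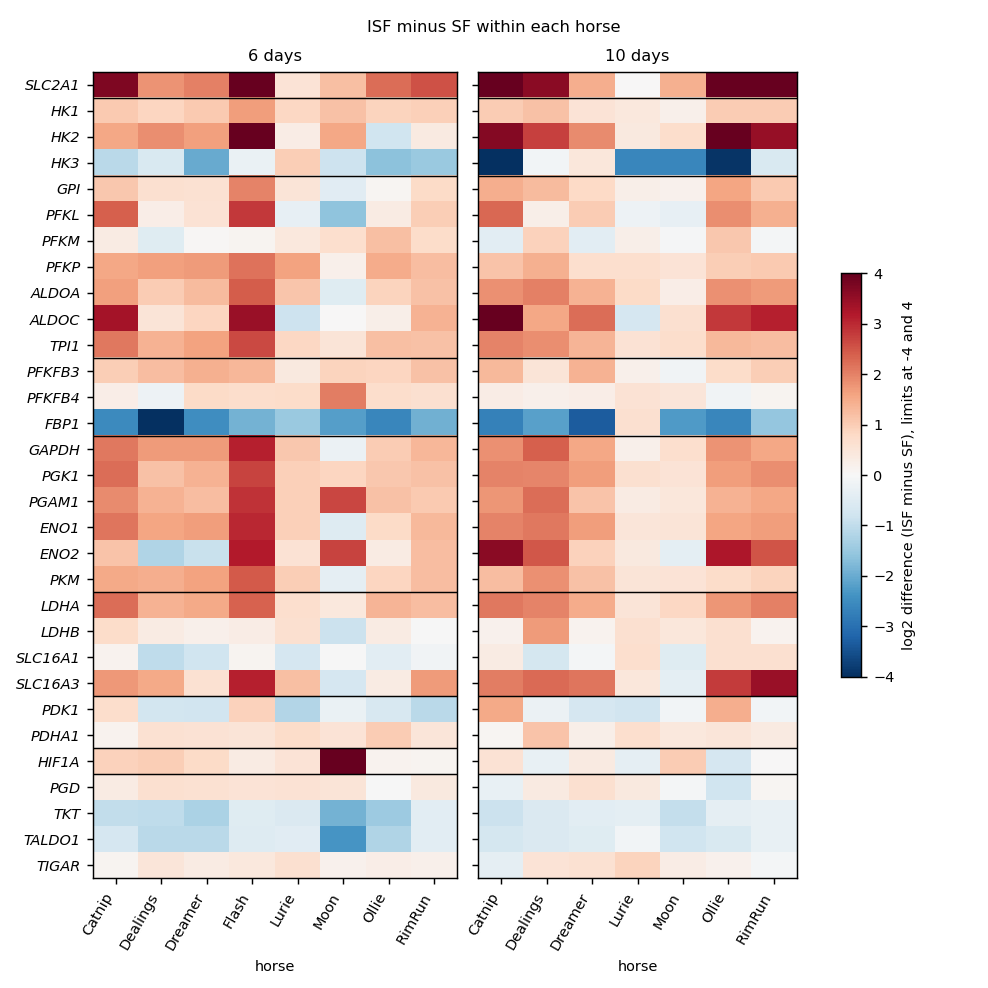
Log2 difference between ISF and SF within each horse (columns) for the 31 genes (rows) at 6 days (left, 8 horses) and 10 days (right, 7 horses); red is higher in ISF, blue lower, and colors stop at 4 and -4. SLC2A1 is reddest in Flash (4.42) and Catnip (3.74) at 6 days and in Catnip (4.82) and Ollie (4.27) at 10 days, and Moon stands apart from the other horses for HIF1A (5.16) at 6 days.

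Other genes of the same pathways were listed as well. Of 49 further symbols for transporters, kinases and enzymes of glucose and pyruvate handling, 39 were tested. In ISF against SF, over the 4 times in order, 1, 2, 9 and 6 were higher (all genes: 0.872%, 6.16%, 16.7% and 9.95%) and 1, 1, 3 and 2 were lower (all genes: 0.81%, 4.3%, 13.6% and 10.8%). SLC16A7 (MCT2), a high-affinity monocarboxylate transporter, was higher at all 4 times, at 2.16, 6.11 and 9.59 GeTMM in ISF against 0, 1.64 and 2.38 GeTMM in SF at 6 days (1.02 ± 0.21, FDR = 0.00324, at 48 hours; 1.56 ± 0.20, FDR = 5.43e-09, at 6 days). EMB, embigin, an ancillary protein of such transporters, was at 41.1, 77.6 and 240.2 and 4.86, 22.8 and 27.6 GeTMM at 6 days (2.17 ± 0.41, FDR = 3.41e-05). PCK2, the mitochondrial phosphoenolpyruvate carboxykinase, was at 21.7, 39.3 and 77.5 and 8.48, 13.0 and 33.1 GeTMM at 10 days (1.48 ± 0.29, FDR = 0.000113). PC, pyruvate carboxylase, was higher at 6 days (1.10 ± 0.43, FDR = 0.0435), with overlapping ranges of 5.88 to 47.4 GeTMM in ISF and 2.37 to 40.1 in SF. Neither PC nor EMB was called at 10 days.

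Genes linked to HIF-1 outside glycolysis were listed separately (22 symbols, all tested). None was called by limma at 48 hours, where 3 had an unadjusted p under 0.05. Later, 3 were higher at 96 hours (all genes: 6.16%), 8 higher and 2 lower at 6 days (all genes: 16.7% and 13.6%), and 10 higher and 1 lower at 10 days (all genes: 9.95% and 10.8%). The 3 with the largest differences at 10 days were ANKRD37, BNIP3 and ADM. ANKRD37, a small ankyrin protein induced by hypoxia, was at 7.7, 25.4 and 159.5 GeTMM in ISF and 0.306, 1.84 and 23.1 GeTMM in SF at 10 days (2.64 ± 0.48, FDR = 2.1e-05, at 6 days; 3.01 ± 0.52, FDR = 1.3e-05, at 10 days). BNIP3, which promotes removal of mitochondria, was at 89.5, 320.2 and 1029.7 and 38.7, 62.5 and 365 GeTMM at 10 days (1.24 ± 0.36, FDR = 0.00584, at 6 days; 2.58 ± 0.38, FDR = 9.65e-07, at 10 days). ADM, which encodes the vasodilator adrenomedullin, was at 0.187, 8.85 and 46.9 and 0.115, 0.286 and 10.0 GeTMM at 10 days (2.18 ± 0.50, FDR = 0.00084).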

How the data were processed

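RNA from BMNC of 8 horses was sequenced by the authors (stranded paired-end libraries). Per the labels, reads were aligned with STAR 2.7.2a to EquCab3.0 and edgeR was used. The deposited table holds GeTMM, an RPKM-like unit in which the authors divided gene counts by gene length and then scaled the libraries. STAR counts reads that map to 1 place only, so genes with near-identical copies, such as GAPDH or LDHA, are uncertain in level. Groups were taken from the labels. Fold changes are on the log2(GeTMM + 1) scale, which understates the change of low genes.

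Genes at 0.5 GeTMM or more in at least 7 libraries (14570) were tested with limma 3.58.1 (R 4.3.3; lmFit, contrasts.fit, eBayes with trend), with 68 libraries and 9 groups in 1 fit without horse, two-sided, and Benjamini-Hochberg adjustment over all genes. Members and gene lists were chosen with earlier results of these data known. Every member is named; full values are given for members called at a log2 fold change of 1 or more in size between the fluids, or among the 3 highest or 3 lowest from 0 to 48 hours. In the other lists at most 3 genes a role are named. Reads on genes were recovered from the steps between values (24064 of 24065 genes above 0, each value within 0.02 reads of a whole number), which gave the depths stated. Scripts were tested on simulated data.

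Libraries of a horse pair ISF with SF, since they come from the same animal; their deviations from group means correlated at 0.0743 to 0.563 in 28 of 30 pairs. Alternatives were horse as a block, a pseudocount of 0.1, no filter, median-of-ratios scaling, only the groups compared, library weights, voom on recovered reads, and leaving out 1 SF library (Moon, 6 days), 2 ISF libraries (Dealings and Dreamer, 96 hours) or each horse. No sequences or coordinates of EquCab3.0 were used here.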

Additional observations from a re-analysis of the deposited data

Results flagged for a closer look

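Of 279 groups of 7 or 8 library values screened, 13 held a highest or lowest value far from the rest, where chance would give about 13.95 at 1 in 20. The 6-day SF library of Moon gave 5 of the 13. In it PFKFB4 (5.63 GeTMM) and HIF1A (2.83 GeTMM) were far below the group, and ENO1 (1881 GeTMM), TKT (1068 GeTMM) and TALDO1 (1837 GeTMM) far above. The other 8 were SLC2A1 in SF at 10 days, highest in Lurie (26.2 GeTMM), HK1 in ISF at 48 hours, highest in Ollie (162.8 GeTMM), PFKM in SF at 48 hours, highest in Dealings (4.20 GeTMM), ENO1 in SF at 48 hours, highest in Dealings (1022 GeTMM), PFKFB4 in SF at 96 hours, lowest in Moon (22.0 GeTMM), LDHB before culture, highest in Ollie (429.8 GeTMM), PDHA1 in ISF at 10 days, lowest in Catnip (39.2 GeTMM) and HIF1A in ISF at 48 hours, lowest in RimRun (63.5 GeTMM).

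For 14 genes the ISF minus SF difference itself changed from 48 hours to 6 days in the limma interaction test. It grew for SLC2A1 (1.96), PGK1 (1.67), PGAM1 (1.31), ALDOA (1.26), HK1 (1.17), TPI1 (1.02), PFKFB4 (0.99), LDHA (0.95), PGD (0.92), ENO1 (0.87), PFKP (0.83) and PKM (0.78), in log2 units, and fell for TKT (-0.81) and FBP1 (-2.66). Of these, ENO1 was lost without each of Catnip, Dealings, Dreamer, Flash, Lurie, Ollie and RimRun in turn (FDR between 0.0715 and 0.182), SLC2A1 without each of Catnip, Dealings, Dreamer, Flash, Ollie and RimRun in turn (FDR between 0.0569 and 0.101), PKM without each of Catnip, Dealings, Dreamer, Flash and RimRun in turn (FDR between 0.0603 and 0.105) and FBP1 without each of Catnip, Dreamer, Flash, Lurie and Ollie in turn (FDR between 0.0505 and 0.115). TKT was lost without Dreamer (FDR = 0.105) and without Ollie (0.121), PFKP without Dealings (FDR = 0.0714) and without Flash (0.0515) and PFKFB4 without Dreamer (FDR = 0.0658).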

How the results depend on the processing

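Over 17 alternatives the 31 genes gave 2108 values for ISF against SF. Of these, 1973 kept their direction and their side of the threshold, 88 lost the call, 47 gained it and none reversed; at 6 and 10 days the numbers were 1006, 42 and 6 of 1054. Counts of called genes that moved by over 1.5 times were as follows. With horse as a block (pairing by animal): 5 lower at 96 hours (3 as reported), and rises of 2 in ISF from 6 to 10 days (1), 3 in SF from 48 to 96 hours (1) and 5 in SF from 6 to 10 days (1); no other count moved that far. With a pseudocount of 0.1 or no filter: 0 lower at 48 hours (1) and 1 gene whose difference fell from 48 hours to 6 days (2); with no filter 5 rose in ISF from 96 hours to 6 days (8). With only the groups compared: 6 higher (1) and 0 lower (1) at 48 hours, 14 higher at 96 hours (9), 5 rises in ISF from 48 to 96 hours (3), 1 fall in ISF from 96 hours to 6 days (2), 2 rises in SF from 48 to 96 hours (1), 0 rises (1) and 0 falls (2) in SF from 6 to 10 days, and 1 difference that fell (2). With library weights: 7 higher and 3 lower at 48 hours, 15 higher and 5 lower at 96 hours, 3 rises and 4 falls in ISF from 6 to 10 days, and 2 rises in SF from 48 to 96 hours. With voom on recovered reads: 0 lower at 48 hours, 2 rises in ISF from 6 to 10 days, 2 rises in SF from 48 to 96 hours and 1 difference that fell. Without the 6-day SF library of Moon: 2 lower at 48 hours, 13 rises in ISF from 96 hours to 6 days, 2 rises in ISF from 6 to 10 days, 2 rises in SF from 48 to 96 hours and 1 fall in SF from 6 to 10 days. Without the 96-hour ISF libraries from Dealings and Dreamer: 0 lower at 48 hours, 0 lower at 96 hours and 2 falls in ISF from 48 to 96 hours. Median-of-ratios scaling moved no count that far. The cause of these shifts was not tested.

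Leaving out each horse in turn gave, at 48 hours, 0 to 2 higher and 0 to 2 lower; at 96 hours 0 to 3 lower; at 6 days 18 to 21 higher and 3 lower each time; at 10 days 18 to 20 higher and 2 to 4 lower. For changes in ISF the ranges were 2 to 4 falls from 48 to 96 hours, 3 to 13 rises and 1 to 3 falls from 96 hours to 6 days, and 1 to 3 rises from 6 to 10 days. For changes in SF they were 1 to 2 rises and 3 to 8 falls from 48 to 96 hours, 0 to 1 falls from 96 hours to 6 days, and 0 to 4 rises and 1 to 3 falls from 6 to 10 days. The difference between fluids fell from 48 hours to 6 days for 0 to 2 genes and grew for 8 to 14. The number of horses, 7 or 8 a group, limits the precision, and low genes such as FBP1 and ENO2 at 0 hours rest on few reads.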

Other observations

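Several further genes of the HIF-1 list had large differences at 6 and 10 days; they were picked for these sentences after their values were seen. The collagen prolyl hydroxylase subunits P4HA1 and P4HA2 were higher in ISF by 1.54 ± 0.24, FDR = 1.09e-06, and 1.87 ± 0.22, FDR = 8.64e-10, at 6 days and by 1.74 ± 0.26, FDR = 8.29e-07, and 1.43 ± 0.23, FDR = 4.81e-06, at 10 days, and P4HA2 was higher at 96 hours (1.29 ± 0.22, FDR = 2.46e-05). VEGFA, the vascular growth factor, was higher by 1.35 ± 0.41, FDR = 0.00903, at 6 days and 1.63 ± 0.44, FDR = 0.0047, at 10 days, and DDIT4, a stress-induced inhibitor of mTORC1, by 1.47 ± 0.48, FDR = 0.0155, and 1.47 ± 0.52, FDR = 0.0348. HMOX1, heme oxygenase, was higher by 1.12 ± 0.30, FDR = 0.00947, at 96 hours and 1.26 ± 0.30, FDR = 0.000889, at 6 days. TXNIP, which restrains glucose uptake, was lower in ISF at 6 days (-1.21 ± 0.40, FDR = 0.0172) and at 10 days (-1.75 ± 0.43, FDR = 0.00185). EGLN3, a HIF prolyl hydroxylase that is itself a HIF target, was not called at 6 days (-0.48 ± 0.38, FDR = 0.357) or 10 days (0.67 ± 0.40, FDR = 0.25).

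Of 11 other pyruvate entry genes tested, 3 were higher and 1 was lower in ISF at 6 days (all genes: 16.7% and 13.6%). The 3 were DLAT and DLD, subunits of the pyruvate dehydrogenase complex, and MPC1, part of the mitochondrial pyruvate carrier. They were higher by 0.54 ± 0.13, FDR = 0.00135, 0.33 ± 0.12, FDR = 0.022, and 0.47 ± 0.13, FDR = 0.00395. PDK2, a pyruvate dehydrogenase kinase, was lower at 96 hours (-0.61 ± 0.18, FDR = 0.0153) and at 6 days (-0.64 ± 0.18, FDR = 0.0037). LDHD, which oxidizes D-lactate, was lower at 6 days (-0.91 ± 0.19, FDR = 0.000113) and at 10 days (-0.98 ± 0.20, FDR = 0.000169).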
